A study of Mus musculus with 16 samples.

Results

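Transcript usage was compared between microglia of 8 p38KO mice and 8 p38+/+ mice. Usage is the share of a gene's summed reads that goes to each of its transcripts, so that it can change while the total of the gene does not. The values were CPM per transcript, that is, read counts scaled to the same total in each library. Genes entered the comparison where the table listed 2 or more of their transcripts and their summed CPM reached 10 in all 16 libraries. Of 19955 genes in the table, 11064 had 2 or more listed transcripts, and 6142 of these passed, with 33907 of the 61144 transcripts. They held 83.4 to 84.4% of all CPM in p38KO libraries and 82.9 to 85.7% in p38+/+ libraries. Just inside the limit were Srp54a, Mbd5 and Prdm15, with 10.001, 10.003 and 10.02 CPM in their lowest library, and just outside were Tnfaip2 (9.99 CPM), Hras (9.97 CPM) and Zfp53 (9.95 CPM). Tests were run on the 13913 transcripts, in 4987 genes, whose mean share lay between 5 and 95%.

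The study asked what early loss of microglial p38α does in the APPswe/PS1dE9 model of Alzheimer's disease, a mouse that carries mutant APP and presenilin transgenes and deposits amyloid plaques (AD), and in mice without those transgenes (WT). Live cells positive for CD11b and P2ry12 were sorted from 1 brain hemisphere per mouse at about 11 months of age, and the 4 RNA samples of the best integrity per group were sequenced. The AD p38KO group carried APPswe/PS1dE9+/- and Cx3cr1-creERT2+/-, the AD p38+/+ group APPswe/PS1dE9+/- without Cre, the WT p38KO group Cx3cr1-creERT2+/- without the AD transgenes, and the WT p38+/+ group neither, with 4 mice in each. All mice were p38fl/fl, with exon 1 of Mapk14 between loxP sites, were on a C57BL/6J background and ate tamoxifen for 4 weeks from 5 months of age, so both groups had the drug and the floxed allele. Only p38KO mice carried the Cre, a tamoxifen-inducible enzyme made wherever the Cx3cr1 promoter is active. The Cre replaces 1 Cx3cr1 allele, so loss of p38α and presence of the Cre cannot be told apart. Females were 3 of 8 p38KO mice and 2 of 8 p38+/+ mice.

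Mapk14 encodes p38α, a stress-activated MAP kinase that is switched on by the upstream kinases MKK3 and MKK6 and acts through kinases such as MK2 and transcription factors such as MEF2A. Most mouse genes give several transcripts through alternative promoters, splice sites and polyadenylation sites, and these can differ in the protein they encode, in the untranslated ends that govern stability and translation, or in both. In microglia, the resident macrophages of the brain, p38 signalling is best known for its part in inflammatory cytokine production.

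One read was worth 0.0609 to 0.0814 CPM, which puts each library at 12.3 to 16.4 reads per CPM, and 3 reads at 0.183 to 0.244 CPM, a floor for counting error only. Every library carried the microglial markers, with 15556 to 20655 CPM of Csf1r and 5022 to 7293 CPM of Tmem119, while 12 neuronal markers summed to 5.13 to 13.7 CPM in p38KO libraries and 4.20 to 9.78 CPM in p38+/+ libraries. Markers of border macrophages, monocytes and granulocytes summed to 48.1 to 124 CPM in p38KO libraries and 27.4 to 142 CPM in p38+/+ libraries. AD p38KO mice 4 and 1 stood apart, with 46461 and 48531 transcripts detected, against 51215 to 53444 in the other p38KO libraries and 51646 to 55252 in p38+/+ libraries. Without both of them 55 transcripts were called in place of 54, and 34 were shared. The median gene had an effective number of 1.91 to 1.97 transcripts in p38KO libraries and 1.94 to 2.00 in p38+/+ libraries.

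Of the 13913 transcripts tested, Mapk14-202 and Mapk14-203, of the deleted gene itself, had the smallest adjusted p. Mapk14 encodes p38α, and 7 of its transcripts were listed. Mapk14-202, which encodes the 360-codon kinase from the start codon in exon 1, held 0.0351, 0.0615 and 0.171% of the gene's CPM in p38KO libraries (lowest, median and highest), against 29.1, 39.6 and 46.9% in p38+/+ libraries. Mapk14-203, which starts downstream of exon 1, held 92.7, 94.3 and 95.5% in p38KO libraries, against 40.4, 45.9 and 61.0% in p38+/+ libraries. Neither transcript overlapped between the groups. Mapk14-202 was nearly absent from every p38KO library, and nearly all of the gene's CPM there was assigned to Mapk14-203. The share of Mapk14-202 fell (log2 odds change -7.33 ± 0.20, limma adjusted p = 1.35e-14) and that of Mapk14-203 rose (log2 odds change 4.11 ± 0.17, limma adjusted p = 1.17e-11). The log2 odds change is the change in the log2 ratio of a transcript to the other transcripts of its gene, with its SE, p38KO over p38+/+, fitted with APP/PS1 as a covariate and adjusted over all 13913 transcripts.

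The next 4 sequences show coding parts of the Mapk14 transcripts, all in GRCm38 (mm10) on the plus strand. The first is the coding part of exon 1, the exon between the loxP sites, at chr17:28691740-28691855, with its start codon in capitals. The second is the first coding stretch of Mapk14-203, at chr17:28713889-28713903, with its start codon in capitals. These bases are in 6 listed transcripts, Mapk14-202 among them. The start codon of Mapk14-203 lies 231 bases into the coding sequence of Mapk14-202, in the same frame. The annotated product of Mapk14-203 thus lacks the first 77 of 360 codons and has 283. The last pair are the 2 mutually exclusive 80-base exons, at chr17:28737011-28737090 in Mapk14-202 and Mapk14-203 and at chr17:28740680-28740759 in Mapk14-201, with the 41 bases that differ in capitals.
Mapk14 exon 1: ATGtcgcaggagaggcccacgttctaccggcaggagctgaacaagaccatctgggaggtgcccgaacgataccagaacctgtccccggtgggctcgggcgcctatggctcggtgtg
Mapk14-203 start: ATGaaacacgaaaat
Mapk14-202 and Mapk14-203 exon: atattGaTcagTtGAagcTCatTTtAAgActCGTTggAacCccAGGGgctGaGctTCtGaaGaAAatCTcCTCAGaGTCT
Mapk14-201 exon: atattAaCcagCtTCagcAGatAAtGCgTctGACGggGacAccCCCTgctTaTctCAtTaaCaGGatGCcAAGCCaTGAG

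In CPM, Mapk14-202 had 0.0574, 0.0911 and 0.248 CPM in p38KO libraries, against 47.1, 67.1 and 82.6 CPM in p38+/+ libraries. The p38KO values lay near or below that of 3 reads, so the log2 odds change of Mapk14-202 depends on the pseudocount and was -8.88 with 0.1 CPM and -6.48 with 1 CPM in place of 0.5. Mapk14-203 had 130, 148 and 160 CPM in p38KO libraries, against 61.3, 81.2 and 98.7 CPM in p38+/+ libraries. The CPM assigned to Mapk14-203, like its share, was thus higher in p38KO libraries without overlap. Mapk14-203 shares most of its bases with Mapk14-202, so reads over those bases do not tell these forms apart. Whether more RNA began at the first exon of Mapk14-203 was not tested. Summed over its transcripts, Mapk14 averaged 156 ± 12.3 CPM in p38KO libraries and 172 ± 18.0 CPM in p38+/+ libraries (SD over 8 libraries per group). Its total was not called (log2 fold change -0.14 ± 0.07, limma adjusted p = 0.909). Mapk14-201, the form with the other exclusive exon, fell as well and held 0.00309, 2.62 and 5.27% in p38KO libraries, against 7.21, 9.67 and 14.2% in p38+/+ libraries (log2 odds change -2.18 ± 0.43, limma adjusted p = 0.0266). The 5 listed transcripts annotated with exon 1 summed to 4.05, 5.68 and 7.03% in p38KO libraries, against 38.9, 53.8 and 59.4% in p38+/+ libraries. These are sums over whole transcripts, and reads over exon 1 itself were not counted. Mapk14-201 is the only listed transcript with its exclusive exon, so reads of that exon fall to it with or without exon 1. In sorted cells, fewer cells with an intact allele, less RNA with exon 1 per cell and reads given to these forms for their other exons cannot be told apart.

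**Figure D1:**
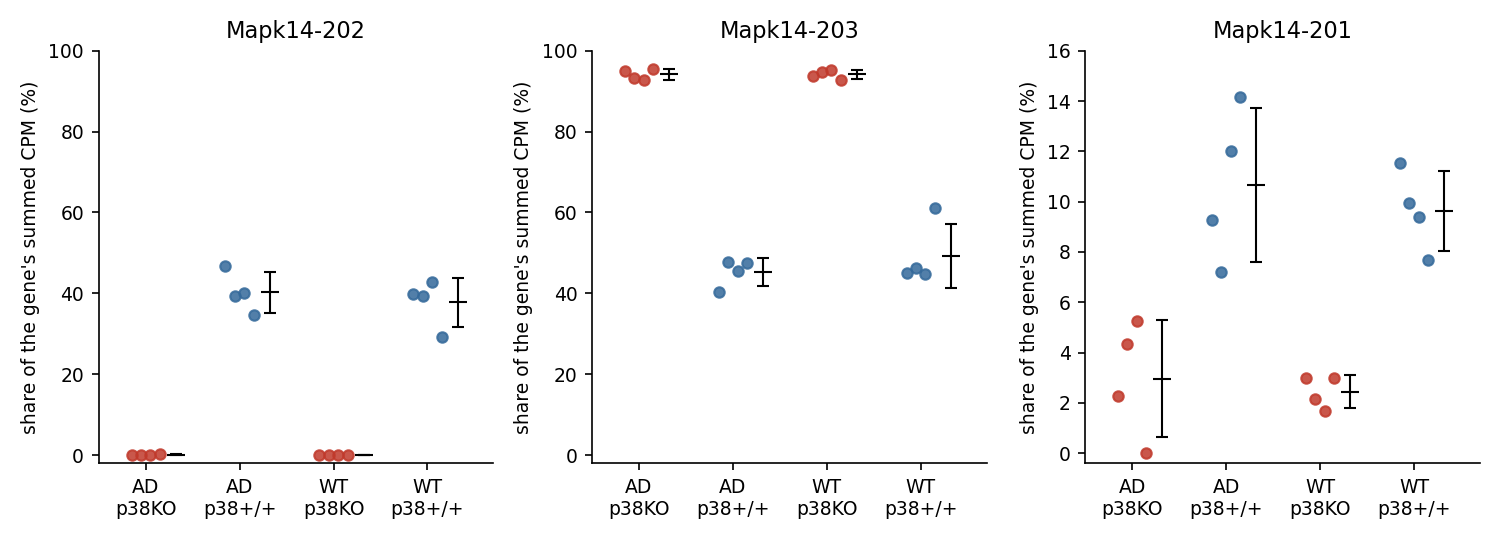
Share of Mapk14 CPM in 3 of its transcripts, by library (vertical axis, % of the gene's summed CPM, with a shorter axis for Mapk14-201) and group (horizontal axis, 4 mice each, p38KO in red and p38+/+ in blue). Points are libraries and bars are the mean and SD. The 8 p38KO libraries lie at or under 0.171% for Mapk14-202 and at or above 92.7% for Mapk14-203, in AD and WT mice alike.

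Across all transcripts tested, 54 of 13913 were called at an adjusted p under 0.05, or 0.388%, in 35 of 4987 genes, or 0.702%. Of these, 25 rose (0.18% of those tested) and 29 fell (0.208%). The called shares moved by 1.81 to 46.9 percentage points, with a median of 9.8, against a median of 1.95 points over all transcripts tested. In 30 of the 54 the 8 p38KO and 8 p38+/+ libraries did not overlap, which 47 transcripts showed in all (0.338%). At an unadjusted p under 0.05 there were 1328 transcripts, or 9.55%. Combining the transcripts of each gene by Simes's method gave 33 genes, 32 of them among the 35. Protein-coding transcripts made up 48 of the 54, and 2 each were annotated as retained intron, as subject to nonsense-mediated decay and as processed transcript.

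The call held without each of the 16 libraries in turn for the lead transcript, that with the smallest p, of 16 genes: Mapk14, Clasp2, P2ry12, Ppp4r3a, Rp2, Tjp1, Eps15, Frmd4b, Sft2d2, Hnrnph2, Dock10, Pik3cg, Pdcd10, Tgfbr1, Scamp1 and H2bc6. The other 19 lost it without AD p38+/+ mouse 2, and 17 of them also without WT p38KO mouse 3, 14 without AD p38+/+ mouse 3, 13 without WT p38KO mouse 2 and 12 without WT p38KO mouse 4, with limma adjusted p no higher than 0.0984 in any of these fits. Without a variance trend in limma, 9 of the 35 lead transcripts were called (Mapk14, Clasp2, Ppp4r3a, Rp2, Eps15, Hnrnph2, Pdcd10, Scamp1 and H2bc6), and 18 were by limma's diffSplice, which sets each transcript against its gene's average change. The number of transcripts called fell to 24 without AD p38+/+ mouse 2, 27 without WT p38KO mouse 3, 31 without AD p38+/+ mouse 3 and 34 without WT p38KO mouse 2.

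**Figure D2:**
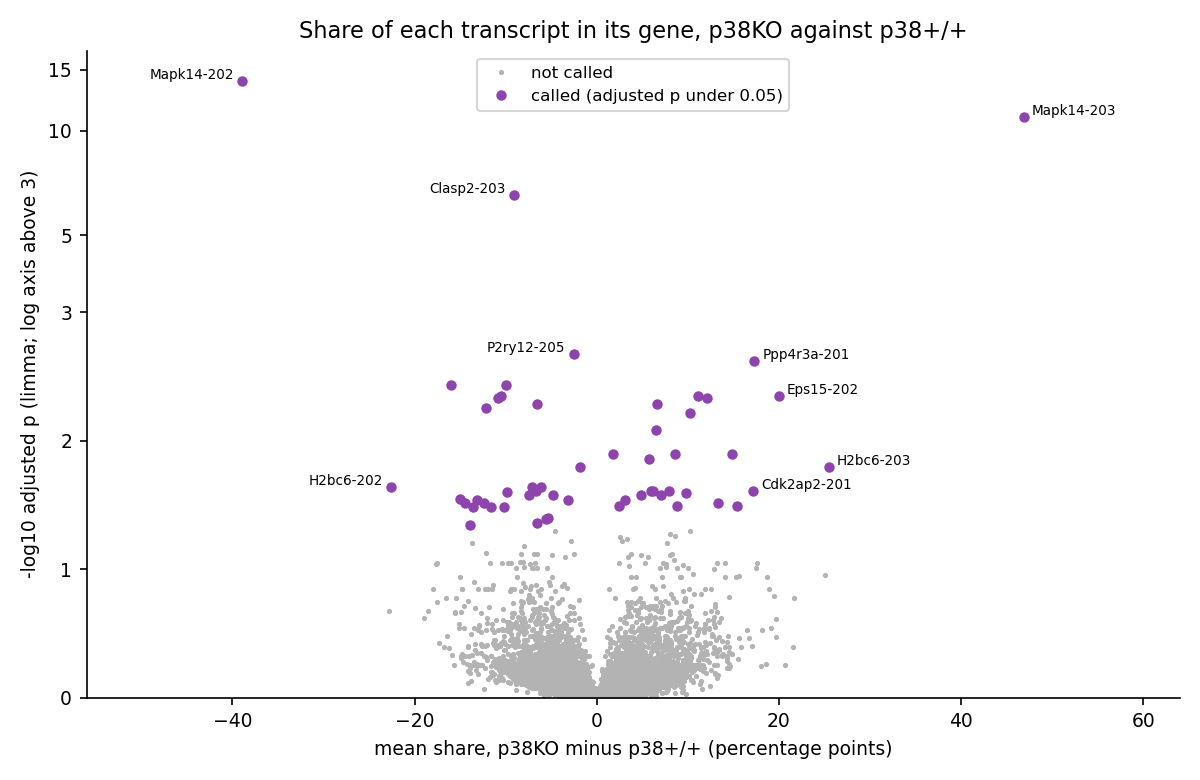
Change in mean share for the 13913 transcripts tested (horizontal axis, p38KO minus p38+/+, percentage points) against the limma adjusted p (vertical axis, -log10, linear up to 3 and logarithmic above). Each point is a transcript, and the 54 called are purple. Mapk14-202, Mapk14-203 and Clasp2-203 stand above the rest, and the called transcripts moved by a median of 9.8 points to either side.

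Clasp2 was second to Mapk14 by adjusted p. It encodes a protein that binds the growing plus ends of microtubules and stabilises them. Clasp2-203 held 0.147, 0.437 and 0.726% in p38KO libraries, against 2.96, 10.02 and 16.8% in p38+/+ libraries. All 8 p38KO libraries were below 1% and no p38+/+ library was, and the share fell (log2 odds change -3.99 ± 0.30, limma adjusted p = 3.02e-07). Clasp2-201, the main form, held 72.6, 80.2 and 83.2% in p38KO libraries, against 58.6, 68.1 and 75.4% in p38+/+ libraries, so the groups overlapped slightly, and it rose (log2 odds change 0.90 ± 0.14, limma adjusted p = 0.00468). In CPM, Clasp2-203 had 0.395, 1.18 and 2.16 CPM in p38KO libraries, against 6.31, 21.01 and 29.3 CPM in p38+/+ libraries, and the gene as a whole 263 ± 36.2 CPM in p38KO libraries and 204 ± 28.6 CPM in p38+/+ libraries, which did not pass the test over genes (limma adjusted p = 0.538). Its paralog Clasp1, with the same function, had 5 transcripts tested and none was called. Of 26 genes tested on a list of microtubule and plus-end proteins, Clasp2 alone was called (3.85%, against 0.702% of all genes), with 1 transcript up and 1 down, and 10 of the 94 transcripts had an unadjusted p under 0.05, against 9.55% of all.

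Clasp2-203 differs from Clasp2-201 in the coding part by 1 exon of 3 bases at chr9:113887045-113887047 (GRCm38, plus strand), 1 codon, shown here in capitals between 12 bases of the transcript on each side because Clasp2-203 had the smallest adjusted p outside Mapk14. The annotated Clasp2-203 also ends 1492 bases upstream of Clasp2-201 and is 4108 bases long, against 5609. Transcripts with the 3-base exon, Clasp2-203 and Clasp2-209, made up 0.165, 0.479 and 0.820% in p38KO libraries, against 3.29, 11.1 and 18.2% in p38+/+ libraries. How the authors' aligner placed reads over an exon this short was not tested.
Clasp2-203 exon: cctcatggcaagAGAgtgttcagcatg

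Clasp2 lies 6.16 Mb from Cx3cr1, the gene that carries the Cre, on chromosome 9. Within 20 Mb of Cx3cr1, 87 genes were tested and 3 had a called transcript (3.45%), Clasp2, Qrich1 (11.4 Mb) and Trf (16.7 Mb), against 32 of 4900 elsewhere (0.653%). With each of the 16 libraries left out in turn, Clasp2 kept its call in all 16 fits, Qrich1 in 4 and Trf in 5. Whether the neighbouring chromosome segment that came with the Cre differed in sequence was not tested. Cx3cr1, the fractalkine receptor, had 3 listed transcripts, all with 354 codons, and neither of the 2 tested was called. Cx3cr1-202 held 83.9, 86.9 and 88.0% in p38KO libraries, against 88.1, 88.5 and 91.8% in p38+/+ libraries (log2 odds change -0.34 ± 0.08, limma adjusted p = 0.0754). The groups did not overlap, though their nearest libraries were less than 1 point apart. Cx3cr1-201 averaged 11.4% in p38KO libraries and 9.41% in p38+/+ libraries (limma adjusted p = 0.166).

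Genes of the homeostatic microglial state were called at 3 of 26 tested (11.5%, against 0.702% of all genes): P2ry12, Gpr34 and Tgfbr1, with 2 transcripts up and 3 down, and 18 of their list's 68 transcripts had an unadjusted p under 0.05, against 9.55% of all. The largest share difference per gene had a median of 2.22 points in this list, against 3.09 over all genes tested. Neither this list nor the others were matched to all genes for depth, and the part of depth in these rates was not tested. P2ry12, Gpr34 and Tgfbr1 averaged 4033 to 8240 CPM in p38KO libraries and 4116 to 8090 CPM in p38+/+ libraries, while genes entered from 10 CPM. The called shares of these 3 genes moved by only 1.81 to 3.10 points, against a median of 9.8 over all called transcripts. All 3 lost their call without the variance trend and by limma's diffSplice, and Gpr34 also without the APP/PS1 covariate and when any 1 of 8 libraries was left out (limma adjusted p up to 0.0668). Those 8 were AD p38KO mouse 2, AD p38+/+ mice 1, 2 and 3, WT p38KO mice 2, 3 and 4 and WT p38+/+ mouse 2. P2ry12, the ADP receptor by which microglia sense injured cells, and a protein used to sort these cells, lost part of its short form. P2ry12-205, of 619 bases and with a coding sequence shorter than the 347 codons of the 4 other listed forms, held 9.79, 10.3 and 10.9% in p38KO libraries, against 11.8, 12.9 and 14.2% in p38+/+ libraries (log2 odds change -0.36 ± 0.05, limma adjusted p = 0.00212). The groups did not overlap, though the means, 10.3 ± 0.418% in p38KO libraries and 12.9 ± 0.823% in p38+/+ libraries (SD, n = 8 each), were close.

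Gpr34, a lysophosphatidylserine receptor, has 2 listed transcripts with the same 375 codons and first exons that do not overlap. Gpr34-202 held 78.4, 80.8 and 81.8% in p38KO libraries, against 74.3, 77.8 and 79.3% in p38+/+ libraries (log2 odds change 0.27 ± 0.05, limma adjusted p = 0.029), and the groups overlapped. Tgfbr1, the type I receptor for TGF-β, on which microglial identity depends, is read from 4 listed transcripts. Tgfbr1-201 held 92.0, 93.3 and 94.1% in p38KO libraries, against 90.3, 91.4 and 92.3% in p38+/+ libraries, with a slight overlap (log2 odds change 0.37 ± 0.07, limma adjusted p = 0.0127), and Tgfbr1-202 fell (log2 odds change -0.39 ± 0.07, limma adjusted p = 0.016). They differ by 4 codons, 503 against 499, and Tgfbr1-201 ends 2798 bases further downstream. Selenop, which encodes the selenium carrier selenoprotein P, also shifted between forms with different annotated first exons and the same 380 codons. Selenop-201 held 25.0, 26.6 and 27.6% in p38KO libraries, against 18.3, 21.1 and 24.7% in p38+/+ libraries, without overlap (log2 odds change 0.39 ± 0.08, limma adjusted p = 0.0266). Its call held in 9 of 16 fits that left out 1 library.

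On a list of the p38 pathway, from its activating kinases to its substrates and phosphatases, 2 of 21 genes tested were called (9.52%, against 0.702% of all genes), Mapk14, the deleted gene itself, and Mef2a. Of the 4 called transcripts, 1 up and 3 down, 3 were those of Mapk14. In this list 13 of 60 transcripts had an unadjusted p under 0.05 (21.7%, those of Mapk14 included), against 9.55% of all. Mef2a encodes a transcription factor that p38α phosphorylates. Mef2a-201, with 492 codons, held 4.30, 8.29 and 11.8% in p38KO libraries, against 11.3, 12.7 and 17.9% in p38+/+ libraries, with a small overlap (log2 odds change -0.85 ± 0.18, limma adjusted p = 0.0396). Mef2a-208, with 498 codons and a 24-base coding exon of its own at chr7:67244521-67244544, held 32.7, 40.5 and 42.9% in p38KO libraries, against 24.5, 33.0 and 35.3% in p38+/+ libraries, and did not pass (log2 odds change 0.49 ± 0.11, limma adjusted p = 0.0628). Mef2a-204, with 490 codons, averaged 23.9% in p38KO libraries and 32.8% in p38+/+ libraries and did not pass either (limma adjusted p = 0.0984). The call of Mef2a-201 held in 5 of 16 fits that left out 1 library and in 12 of 22 other alternatives. It was lost with sex as a term, with no filter on the share, with shares in percent and without the variance trend, among others. Its limma adjusted p ran from 0.0158 to 0.554 over the alternatives. The ERK and JNK kinases, the parallel MAP kinase branches, had no call among 21 genes and 67 transcripts by limma, with 6 transcripts at an unadjusted p under 0.05 (8.96%, against 9.55% of all), where 0.702% of all genes were called. The smallest p were those of Mapk7-203 (ERK5), at 4.23% in p38KO libraries and 13.5% in p38+/+ libraries (limma adjusted p = 0.219), and Spag9-208, of the JNK scaffold JIP4, at 18.4% in p38KO libraries and 10.4% in p38+/+ libraries (limma adjusted p = 0.224).

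Several called genes have forms that differ by a short in-frame coding stretch, among them Mef2a, whose form with the stretch was itself not called. These are shown next, 5′ to 3′ on the transcript, with the stretch in capitals between 12 bases on each side, except that for Dock10, where the forms begin in different exons, the start codon is in capitals. In GRCm38 the Ppp4r3a stretch lies at chr12:101053429-101053467 (minus strand), the Tjp1 exon at chr7:65314093-65314332 (minus), the Tgfbr1 stretch at chr4:47393247-47393258 (plus), the Mef2a exon at chr7:67244521-67244544 (minus) and the first coding parts of Dock10-201 and Dock10-205 at chr1:80758326-80758448 and chr1:80665109-80665195 (minus).
Ppp4r3a-202: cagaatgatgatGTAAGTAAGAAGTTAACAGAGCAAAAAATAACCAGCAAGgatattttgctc
Tjp1-202: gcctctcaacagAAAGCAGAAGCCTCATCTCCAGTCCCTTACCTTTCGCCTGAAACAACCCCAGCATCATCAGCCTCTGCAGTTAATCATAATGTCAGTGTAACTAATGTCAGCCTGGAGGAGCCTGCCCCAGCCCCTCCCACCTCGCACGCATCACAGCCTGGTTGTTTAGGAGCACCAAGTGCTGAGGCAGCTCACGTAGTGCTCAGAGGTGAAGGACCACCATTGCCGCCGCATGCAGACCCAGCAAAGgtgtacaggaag
Tgfbr1-201: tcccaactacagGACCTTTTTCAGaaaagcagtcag
Mef2a-208: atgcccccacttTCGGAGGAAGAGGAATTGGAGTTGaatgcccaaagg
Dock10-201 start: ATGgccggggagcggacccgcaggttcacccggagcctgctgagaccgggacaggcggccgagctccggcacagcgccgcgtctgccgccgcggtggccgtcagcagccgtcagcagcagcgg
Dock10-205 start: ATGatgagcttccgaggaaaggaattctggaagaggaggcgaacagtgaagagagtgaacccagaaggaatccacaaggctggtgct

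Ppp4r3a encodes a regulatory subunit of protein phosphatase 4, and its 2 main forms changed order. Ppp4r3a-201, without the 39-base stretch and with 820 codons, held 54.7, 58.6 and 65.3% in p38KO libraries, against 36.9, 40.6 and 50.6% in p38+/+ libraries (log2 odds change 1.00 ± 0.14, limma adjusted p = 0.00239). Ppp4r3a-202, with it and with 833 codons, held 22.7, 26.4 and 33.6% in p38KO libraries, against 39.2, 44.9 and 48.2% in p38+/+ libraries (log2 odds change -1.02 ± 0.15, limma adjusted p = 0.00371). Neither overlapped, and the more abundant form was Ppp4r3a-201 in p38KO libraries and Ppp4r3a-202 on average in p38+/+ libraries. The gene total did not pass the test, at 97.3 ± 16.04 CPM in p38KO libraries and 99.6 ± 19.9 CPM in p38+/+ libraries (SD, n = 8 each).

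Tjp1 encodes ZO-1, a scaffold of cell junctions. Tjp1-202, which includes the 240-base exon (80 codons), held 45.1, 50.5 and 55.9% in p38KO libraries, against 34.5, 39.7 and 43.8% in p38+/+ libraries (log2 odds change 0.65 ± 0.10, limma adjusted p = 0.00449). Tjp1-201, which skips it and holds a 60-base coding stretch of its own at chr7:65299670-65299729 (GRCm38), so that it has 1685 codons against 1745, held 37.9, 40.7 and 46.5% in p38KO libraries, against 46.8, 52.2 and 54.2% in p38+/+ libraries (log2 odds change -0.61 ± 0.09, limma adjusted p = 0.00449). Neither overlapped, and the exon-containing form was the larger of the pair in p38KO libraries and the smaller in p38+/+ libraries by their means. Dock10 shifted between forms whose annotated starts lie 93139 bases apart. Where its RNA began was not tested. The call of Dock10-201 was lost without the variance trend, by limma's diffSplice and with shares taken per length of transcript. Dock10-201, from the upstream start, held 15.1, 18.1 and 21.002% in p38KO libraries, against 9.84, 11.97 and 13.8% in p38+/+ libraries (log2 odds change 0.74 ± 0.12, limma adjusted p = 0.00826), and Dock10-205, the main form, held 57.7, 61.8 and 63.7% in p38KO libraries, against 64.4, 69.0 and 71.5% in p38+/+ libraries (log2 odds change -0.45 ± 0.08, limma adjusted p = 0.0229). Over all transcripts that hold each first coding part, the upstream one averaged 27.2% in p38KO libraries and 19.5% in p38+/+ libraries and the downstream one 67.7% in p38KO libraries and 75.4% in p38+/+ libraries.

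**Figure D3:**
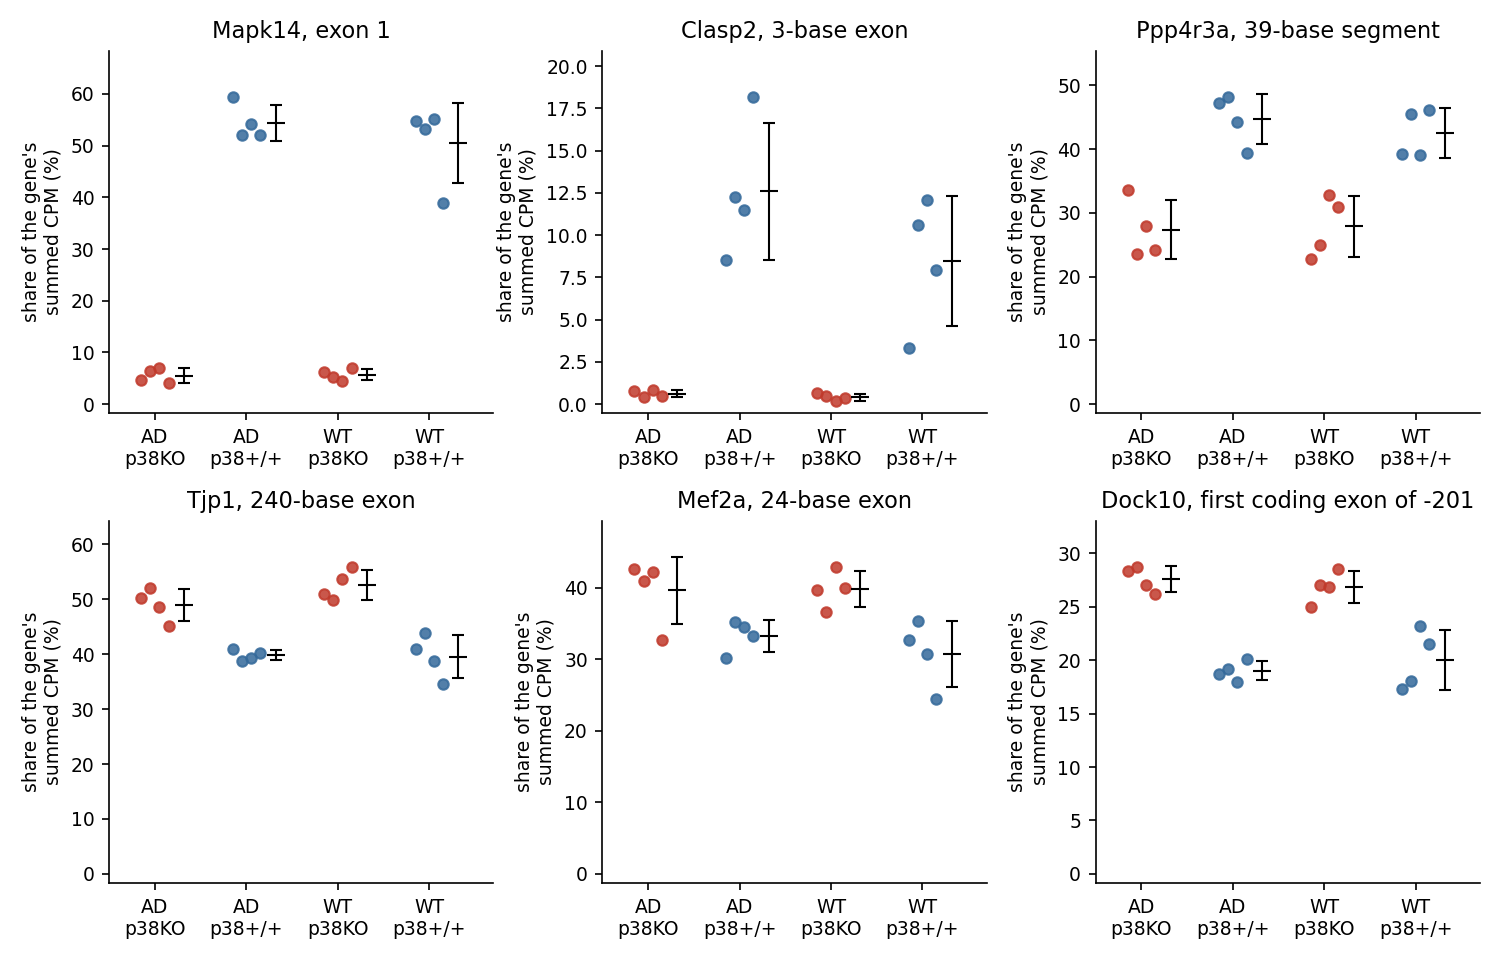
Share of a gene's CPM in transcripts that hold a given coding segment (vertical axis, %, starting near 0 and with its own range per panel), by library and group (horizontal axis, 4 mice each, p38KO red, p38+/+ blue; bars are the mean and SD). The groups do not overlap in 5 of the 6 panels, and in the Mef2a panel 1 AD p38KO library lies among the p38+/+ libraries.

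Among signalling genes, Pik3cg, the catalytic subunit of PI3-kinase γ in myeloid cells, gained Pik3cg-201, which held 46.9, 51.3 and 60.0% in p38KO libraries, against 42.4, 43.5 and 46.1% in p38+/+ libraries, without overlap (log2 odds change 0.49 ± 0.09, limma adjusted p = 0.0127). It shares its 1102 codons with Pik3cg-202, differs in the first exon and ends 1454 bases further downstream. Tifa, an adaptor that links to TRAF6 and NF-κB, gained Tifa-201, 41.2, 45.3 and 51.2% in p38KO libraries, against 29.9, 37.5 and 43.9% in p38+/+ libraries (log2 odds change 0.53 ± 0.11, limma adjusted p = 0.0323), again with an unchanged coding sequence of 184 codons. Those groups overlapped. Nfkb1 encodes the p105 precursor of NF-κB p50, and its called transcripts were non-coding or unstable forms. The call of Nfkb1-207 held in 11 of 16 fits that left out 1 library. Nfkb1-207, annotated as subject to nonsense-mediated decay, held 4.70, 9.86 and 12.1% in p38KO libraries, against 1.06, 2.89 and 5.11% in p38+/+ libraries, with a slight overlap (log2 odds change 1.61 ± 0.31, limma adjusted p = 0.0245), and the retained-intron Nfkb1-202 averaged 48.0% in p38KO libraries and 61.5% in p38+/+ libraries (log2 odds change -0.80 ± 0.16, limma adjusted p = 0.033). Frmd4b, a FERM-domain protein, lost Frmd4b-204 without overlap, at 50.2, 54.1 and 56.0% in p38KO libraries, against 57.5, 65.1 and 70.8% in p38+/+ libraries (log2 odds change -0.65 ± 0.10, limma adjusted p = 0.00468). Its counterpart Frmd4b-203 starts 158255 bases upstream. Pdcd10, also known as CCM3, gained its main form Pdcd10-205, at 85.5, 92.4 and 95.7% in p38KO libraries, against 62.3, 79.7 and 85.6% in p38+/+ libraries, with a slight overlap (log2 odds change 1.64 ± 0.29, limma adjusted p = 0.0127), while the retained-intron Pdcd10-202 averaged 4.21% in p38KO libraries and 10.8% in p38+/+ libraries.

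Genes with roles in membrane traffic, for which no list was counted, were also among those called. Eps15, an adaptor of clathrin-mediated endocytosis, gained Eps15-202, with 897 codons, at 75.7, 86.5 and 92.8% in p38KO libraries, against 55.8, 65.3 and 75.2% in p38+/+ libraries, without overlap (log2 odds change 1.65 ± 0.25, limma adjusted p = 0.00449). Rp2, a GTPase-activating protein for ARL3, kept its 347 codons and lost Rp2-203, of 1398 bases against 4417 in Rp2-201, at 7.40, 10.9 and 12.5% in p38KO libraries, against 16.5, 19.8 and 30.5% in p38+/+ libraries, without overlap (log2 odds change -1.12 ± 0.16, limma adjusted p = 0.00371). Scamp1, a membrane protein of secretory and recycling vesicles, gained Scamp1-201, at 96.2, 97.9 and 99.8% in p38KO libraries, against 89.3, 91.8 and 95.2% in p38+/+ libraries, without overlap (log2 odds change 2.14 ± 0.38, limma adjusted p = 0.0138). Sft2d2, whose yeast relative acts in Golgi traffic, has 2 listed forms, and the one annotated as subject to nonsense-mediated decay, Sft2d2-202, fell to 9.04, 10.3 and 12.05% in p38KO libraries, against 12.2, 16.9 and 21.1% in p38+/+ libraries (log2 odds change -0.80 ± 0.13, limma adjusted p = 0.00517). The gap between those groups was small.

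Other calls in this group, lost without AD p38+/+ mouse 2 among others, were those of Sec23a, a coat protein of COPII vesicles, with Sec23a-204 at 13.1% in p38KO libraries and 26.3% in p38+/+ libraries on average (log2 odds change -1.21 ± 0.24, limma adjusted p = 0.029), and of Man1a, a Golgi mannosidase, with Man1a-203 at 4.27% in p38KO libraries and 10.9% in p38+/+ libraries (log2 odds change -1.54 ± 0.30, limma adjusted p = 0.0245). Dennd4c, an activator of RAB10, averaged 5.70 ± 5.91% in p38KO libraries and 20.1 ± 9.35% in p38+/+ libraries for Dennd4c-201 (SD, n = 8 each), with a wide spread (log2 odds change -2.14 ± 0.43, limma adjusted p = 0.0306). Slc35a5, of the nucleotide-sugar transporter family, averaged 85.5% in p38KO libraries and 77.5% in p38+/+ libraries for Slc35a5-201 (log2 odds change 0.79 ± 0.15, limma adjusted p = 0.0245). Tmem59, a Golgi and endosomal membrane protein, moved to the non-coding Tmem59-203, at 28.9, 30.2 and 33.0% in p38KO libraries, against 18.9, 25.0 and 27.9% in p38+/+ libraries, without overlap (log2 odds change 0.44 ± 0.08, limma adjusted p = 0.0245). Trf, transferrin, averaged 94.6% in p38KO libraries and 92.2% in p38+/+ libraries for Trf-201 (log2 odds change 0.57 ± 0.12, limma adjusted p = 0.0323).

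Among genes that act on RNA or in the nucleus, Hnrnph2, a splicing regulator on the X chromosome, lost Hnrnph2-201, at 1.504, 4.05 and 9.34% in p38KO libraries, against 10.5, 14.6 and 31.8% in p38+/+ libraries, without overlap (log2 odds change -2.17 ± 0.35, limma adjusted p = 0.00558). The 449 codons are the same as in Hnrnph2-205, which ends 676 bases further downstream. It was the 1 gene called of 61 splicing factors tested (1.64%, against 0.702% of all), and 26 of their 226 transcripts had an unadjusted p under 0.05 (11.5%, against 9.55% of all). H2bc6, a histone H2B gene, moved to the processed transcript H2bc6-203, at 70.4, 80.2 and 95.8% in p38KO libraries, against 46.8, 57.5 and 66.6% in p38+/+ libraries, without overlap (log2 odds change 1.78 ± 0.32, limma adjusted p = 0.016). The coding H2bc6-202 averaged 9.88% in p38KO libraries and 32.5% in p38+/+ libraries, and the gene total 17.1 ± 3.12 CPM in p38KO libraries and 25.6 ± 6.32 CPM in p38+/+ libraries (SD, n = 8 each), with an unadjusted p of 0.000707 (limma adjusted p = 0.538). Reads of H2bc6 and of Hnrnph2 can be shared with near-identical family members, so these are uncertain.

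A further set of genes of this kind were called with all 16 libraries and not without AD p38+/+ mouse 2. Nufip2, a partner of the FMRP protein, lost Nufip2-204 without overlap, at 31.4, 37.1 and 40.2% in p38KO libraries, against 42.7, 46.2 and 50.7% in p38+/+ libraries (log2 odds change -0.59 ± 0.11, limma adjusted p = 0.0249). Ythdf3, a reader of m6A-modified RNA, averaged 15.5% in p38KO libraries and 27.9% in p38+/+ libraries for Ythdf3-203 (log2 odds change -1.09 ± 0.22, limma adjusted p = 0.0306). Tnpo1, the nuclear import receptor transportin 1, lost Tnpo1-204, at 4.11, 8.90 and 11.9% in p38KO libraries, against 13.3, 18.0 and 30.8% in p38+/+ libraries, without overlap (log2 odds change -1.34 ± 0.28, limma adjusted p = 0.033). Cdk2ap2, a CDK2-associated protein, gained Cdk2ap2-201, at 61.3, 67.3 and 71.9% in p38KO libraries, against 38.2, 50.2 and 60.8% in p38+/+ libraries, without overlap (log2 odds change 1.02 ± 0.19, limma adjusted p = 0.0245). Espl1, the cohesin-cleaving protease separase, averaged 10.3% in p38KO libraries and 25.4% in p38+/+ libraries for Espl1-202 (log2 odds change -1.54 ± 0.30, limma adjusted p = 0.0282), with 2118 codons in both of its forms. Qrich1-202 averaged 24.9% in p38KO libraries and 38.8% in p38+/+ libraries (log2 odds change -0.93 ± 0.20, limma adjusted p = 0.0449), and Tmem209-203 7.85% in p38KO libraries and 19.4% in p38+/+ libraries (log2 odds change -1.48 ± 0.31, limma adjusted p = 0.033).

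The disease-associated microglia list had 1 call among 18 genes tested (5.56%, against 0.702% of all genes), H2-K1, a classical MHC class I heavy chain, and 8 of its 46 transcripts had an unadjusted p under 0.05 (17.4%, against 9.55% of all). H2-K1-201 held 60.8, 64.2 and 66.3% in p38KO libraries, against 67.9, 69.5 and 72.7% in p38+/+ libraries, without overlap (log2 odds change -0.40 ± 0.08, limma adjusted p = 0.0229), and H2-K1-205, with 360 codons against 369, averaged 14.6% in p38KO libraries and 10.8% in p38+/+ libraries. MHC class I genes share long stretches of sequence, so this split of reads is uncertain, and the call of H2-K1-201 was lost without AD p38+/+ mouse 2 or mouse 3 (limma adjusted p up to 0.0592). No gene was called by limma among 14 of the interferon response, where 2 of 43 transcripts had an unadjusted p under 0.05 (4.65%, against 9.55% of all), among them Trim25-203 at 47.0% in p38KO libraries and 38.2% in p38+/+ libraries (limma adjusted p = 0.403). Likewise none was called among 31 of phagocytosis and the lysosome, where 17 of 84 transcripts had an unadjusted p under 0.05 (20.2%, against 9.55% of all) and the closest were Ctsa-202 at 73.9% in p38KO libraries and 70.6% in p38+/+ libraries (limma adjusted p = 0.179), of the protective protein cathepsin A, and Ctsd-201, of cathepsin D, at 6.82% in p38KO libraries and 5.19% in p38+/+ libraries (limma adjusted p = 0.278). Of the genes that the study itself names from these samples, 5 met the rule (Cdc37l1, Csf2ra, Klf7, Rtp4 and Tmc7), none of their 12 transcripts had an unadjusted p under 0.05, and the smallest limma adjusted p was 0.67. Dissociation stress genes had no call among 4 tested, with 2 of 9 transcripts at an unadjusted p under 0.05 (22.2%, against 9.55% of all), Zfp36-201 being closest (limma adjusted p = 0.235). Of markers of other brain cells, Slc1a3 (astrocytes), Mag and Mbp (oligodendrocytes) and Pecam1 (endothelium) had tested transcripts, and limma called none, with 0 of their transcripts at an unadjusted p under 0.05.

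**Figure D4:**
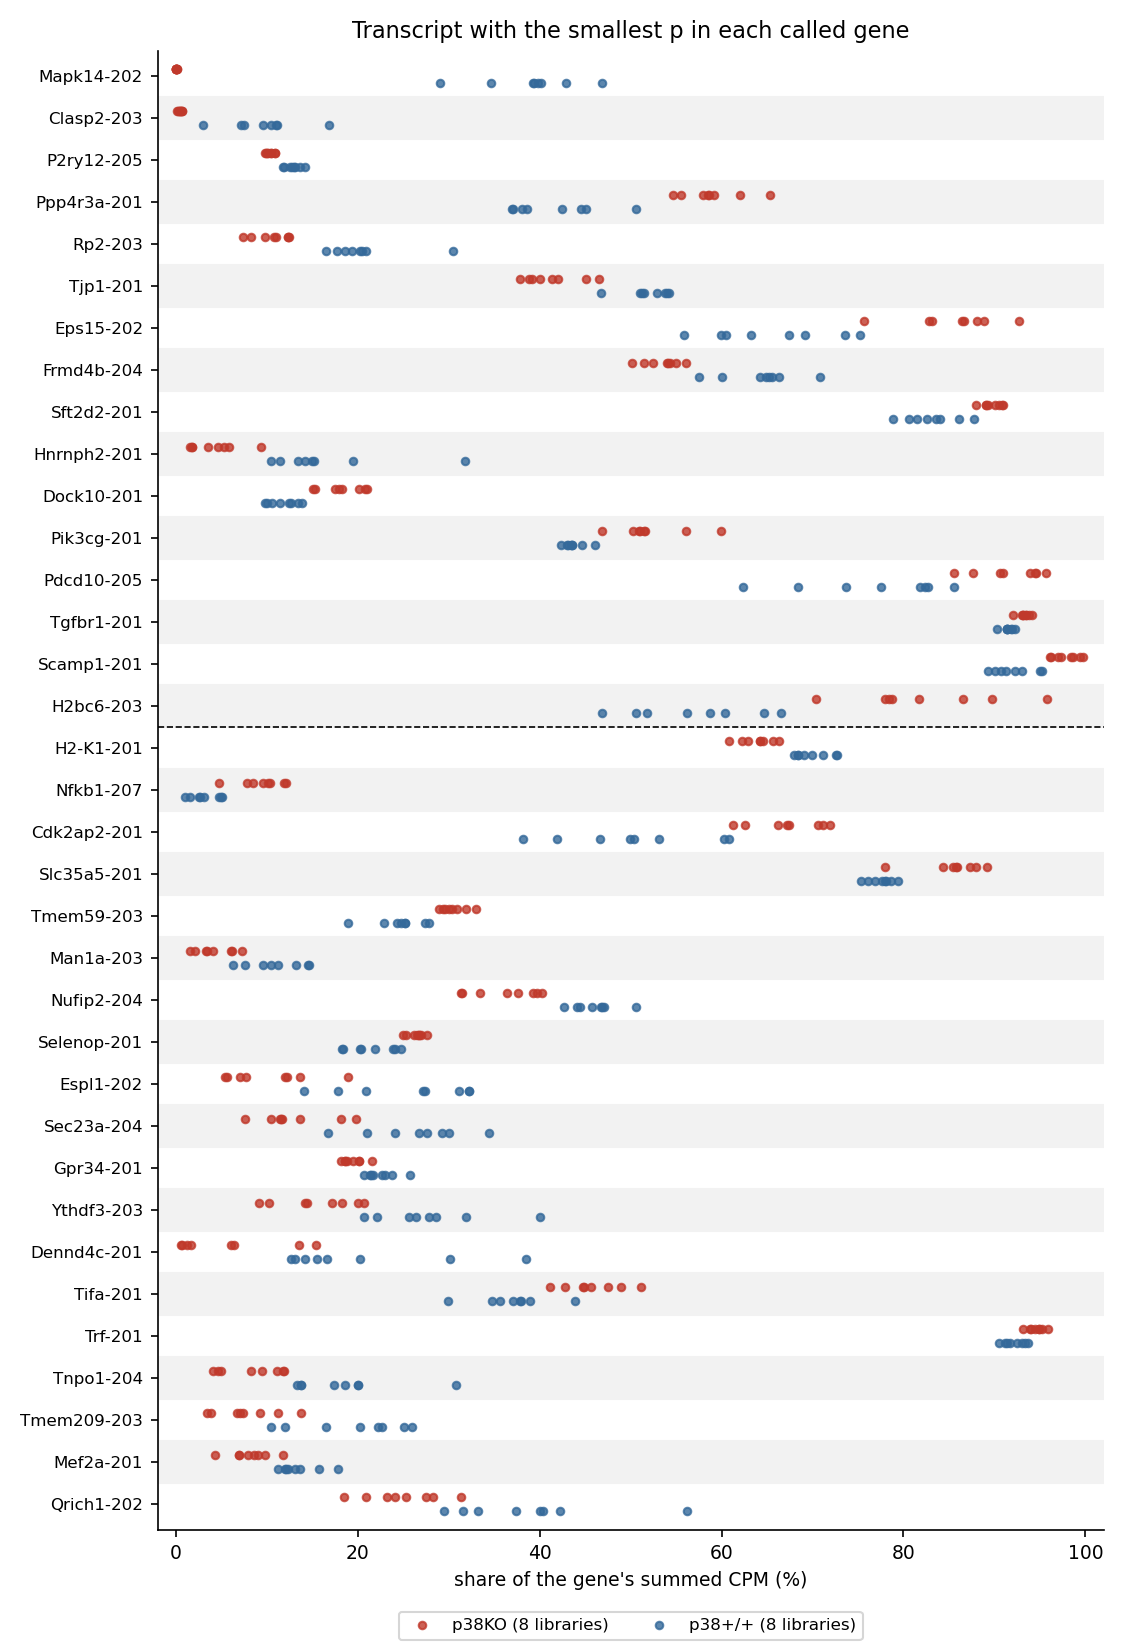
Share of the gene's summed CPM (horizontal axis, %) of the transcript with the smallest p in each of the 35 called genes, p38KO libraries in red above p38+/+ libraries in blue, 8 points each. Genes run down in order of adjusted p, and those above the dashed line were called without each library in turn. In Mapk14 and Clasp2 the p38KO points crowd near 0, while in Slc35a5 and Gpr34 the groups overlap.

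The called switches were compared by transcript structure. In each gene, the tested transcript whose share rose most was set against the tested one whose share fell most. Such a pair, with both on the annotation, was present in 33 of the 35 genes. The form that rose ended further downstream by more than 10 bases in 25 of 33 genes (75.8%) and further upstream in 2, against 39.1% and 31.3% of the 4382 genes tested with such a pair. It was the longer of the pair in 26 of 33 (78.8%), against 50.0% of 4382, and the exceptions were Mapk14, Gpr34, H2-K1, H2bc6, Nfkb1, Selenop and Tmem59. The coding sequence was the same in both forms in 9 of 30 coding pairs (30%), against 27.0% of 2618. First exons did not overlap in 12 of 33 (36.4%), against 34.3%. Among the 15 such genes that kept their call without each library, the form that rose ended downstream in 12 and was longer in 13.

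The annotated ends of the pair lay furthest apart in H2bc6 (35310 bases) and Nufip2 (29180 bases), where the form that rose ends upstream, and in Dennd4c (20436 bases) and Tnpo1 (10204 bases), where it ends downstream. Man1a-201 ends 2225 bases beyond Man1a-203, Eps15-202 2130 bases beyond Eps15-208, and Ythdf3-201 2031 bases beyond Ythdf3-203. Rp2-201 and Rp2-203 end within 10 bases of each other, and Rp2-201 has 3023 bases that Rp2-203 lacks. With each gene's transcript lengths weighted by their shares, the mean length was greater in p38KO libraries in 28 of the 35 called genes (80%; median log2 difference 0.03, range -0.08 to 0.16), against 52.0% of all 4987 genes (median log2 difference 0.0005). The genes were selected for a difference between these same groups, so this is a description. A share of CPM counts reads rather than molecules, and longer transcripts yield more reads. When shares were taken per length, an alternative added after the data were seen, 30 of the 35 lead transcripts were called. RNA integrity of the single libraries was not among the values used here, and its part in the result was not tested.

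Switches were not accompanied by called changes of the gene total. Of the 4987 genes, 2 had a called total (0.0401%), and neither was among the 35. Cx3cr1 summed to 2979, 3582 and 4062 CPM in p38KO libraries, against 5641, 7637 and 9299 CPM in p38+/+ libraries, a log2 fold change of -1.13 ± 0.07 (limma adjusted p = 5.25e-10), in the gene whose locus carries the Cre. Mid1, a microtubule-associated ubiquitin ligase, summed to 11.5, 16.3 and 47.3 CPM in p38KO libraries, against 39.1, 51.5 and 65.4 CPM in p38+/+ libraries (log2 fold change -1.42 ± 0.22, limma adjusted p = 0.00527). The highest p38KO library, WT p38KO mouse 2, lay among the p38+/+ libraries. Among the 35 genes, 4 totals had an unadjusted p under 0.05 (Clasp2, Tjp1, H2bc6 and Slc35a5), and over all 4987 genes 253 did.

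In AD and WT mice taken apart, the change of Mapk14-202 was -7.36 and -7.30 on the log2 odds scale, that of Mapk14-203 4.23 and 3.99, and that of Clasp2-203 -4.12 and -3.86. Only Mapk14 and Clasp2 had a lead transcript called within each background alone, where 4 mice stood against 4 and 3 transcripts were called in each. All 54 called transcripts had the same sign in both backgrounds, against 7720 of 13913 tested (55.5%), but the test averages the backgrounds and so favours such transcripts. A direct test of the difference between backgrounds called 1 transcript of 13913 (0.00719%), with 630 (4.53%) at an unadjusted p under 0.05. This was Ttc33-201, of a tetratricopeptide-repeat protein. It held 19.97 to 31.4% in AD p38KO libraries against 46.6 to 58.4% in AD p38+/+ libraries, and 47.7 to 56.5% in WT p38KO libraries against 29.0 to 38.2% in WT p38+/+ libraries. The log2 odds change was -1.54 in AD and 0.99 in WT mice, a difference of -2.53 (limma adjusted p = 0.0288), and the groups did not overlap within either background. No transcript was called for this difference when any 1 of 13 libraries was left out. Without AD p38KO mouse 2 there was 1 call, and without WT p38KO mouse 4 or WT p38+/+ mouse 1 there were 2 each. Ttc33-203 followed with the opposite signs (difference 2.54, limma adjusted p = 0.242), then Snrk-203 (-1.47) and LTO1-207 (-2.88), both at a limma adjusted p of 0.908.

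**Figure D5:**
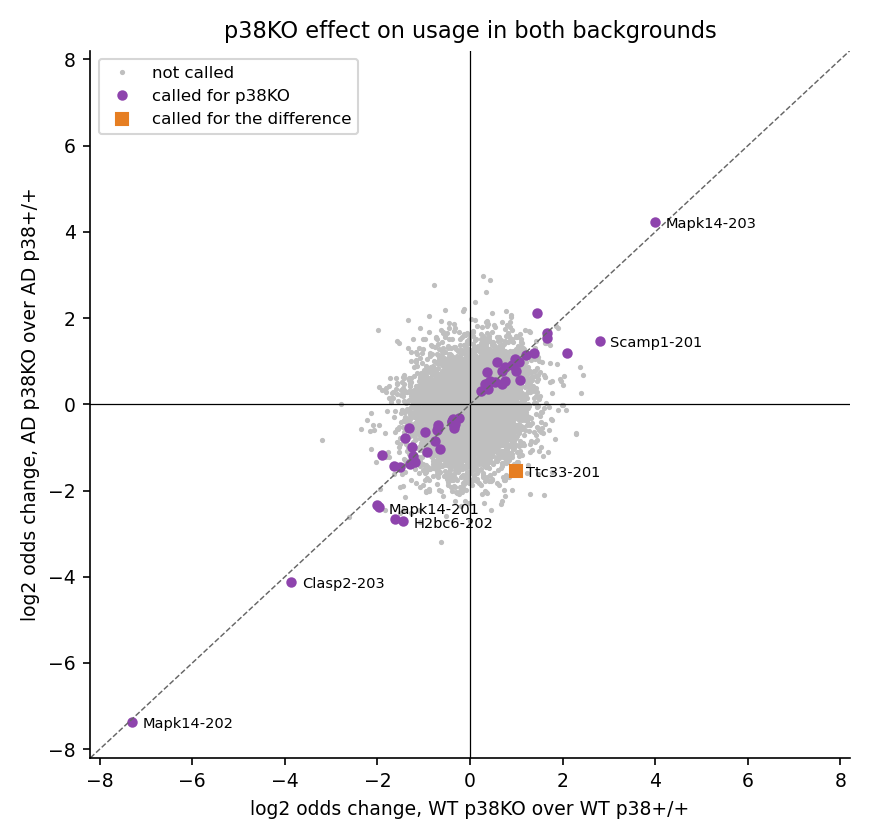
Change of usage in WT mice (horizontal axis, log2 odds, WT p38KO over WT p38+/+) against that in AD mice (vertical axis, log2 odds, AD p38KO over AD p38+/+) for the 13913 transcripts tested. Each point is a transcript, purple for the 54 called and orange for Ttc33-201, and the dashed line marks equal changes. Mapk14-202, Mapk14-203 and Clasp2-203 lie close to the line, and Ttc33-201 lies in the quadrant of opposite signs.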

How the data were processed

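The submitters' processing notes name STAR, Partek 10.0.22.0828 and mm10, and the study's methods an Ensembl annotation. The unit was read from the values: each deposited column sums to the total of a CPM column plus 0.0001 for every transcript, and that 0.0001, the lowest value, was subtracted here. Values of single transcripts are not whole reads, so a count model such as that of the study could not be used. Gene sums came within 1% of the authors' gene table in all libraries for 5690 of 6142 genes (92.6%), and 8 symbols covered more than 1 gene ID. The test was limma 3.58.1 (R 4.3.3; lmFit and eBayes, two-sided, 13 residual degrees of freedom) on log2((transcript CPM + 0.5) / (CPM of the gene's other transcripts + 0.5)), with p38 status and APP/PS1, a variance trend on the smaller of both terms, and Benjamini-Hochberg adjustment over 13913 transcripts. Gene totals were tested as log2(CPM + 0.5), a scale that understates changes of low genes. Transcript structures and sequences came from GENCODE M21 (GRCm38), which held 99.5% of the transcripts, 99.3% with the same coordinates. Named genes were Mapk14, Cx3cr1, Clasp2 and Clasp1, every gene with a called transcript, the called or, where none was, up to 2 leading members of each list, up to 4 transcripts by the test of the difference between backgrounds, the study's own genes that met the rule, and called genes within 20 Mb of Cx3cr1. The members and lists were chosen with earlier results of these data known. Each library is 1 mouse. One transcript that the rule names is not reported here. Tested on simulated data of this comparison (13531 transcripts of 4871 genes), the fit recovered 54 of 100 changes of 1 and 90 of 100 changes of 2 on the log2 odds scale, with 10 of 272 calls in unchanged genes and 0 calls where nothing was changed. The simulation drew the spread of each transcript independently. It did not cover errors in splitting reads between forms of a gene, so its rate of false calls may not hold for the real shares. Alternatives covered the pseudocount, the scale, both filters, the covariates, sex, the label suffix S0, a replicate block, weights, the variance trend, diffSplice, single backgrounds, each library left out and, chosen after seeing the data, shares per length.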

Additional observations from a re-analysis of the deposited data

Results flagged for a closer look

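Within groups of 4 mice, 6 of 148 groups of named shares held a library far from the other 3, by a gap over Dixon's 95% critical value for the group's range. Chance gives about 1 in 20, or 7.4. Pik3cg-201 was 60.0% in AD p38KO mouse 1, against 50.2 to 51.5% in the other AD p38KO mice. Pdcd10-205 was 62.3% in WT p38+/+ mouse 4, against 81.8 to 82.7%. Tmem59-203 was 18.9% in AD p38+/+ mouse 3, against 24.3 to 25.2%. Sec23a-204 was 19.9% in WT p38KO mouse 2, against 11.5 to 11.7%. Gpr34-201 was 20.1% in WT p38KO mouse 1, against 18.6 to 18.8%. Dennd4c-201 was 6.39% in AD p38KO mouse 4, against 0.526 to 1.23%. The effect of p38KO on Ttc33-201 differed between the AD and WT backgrounds, by -2.53 on the log2 odds scale, with every AD p38KO library below and every WT p38KO library above its controls.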

How the results depend on the processing

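With the stated settings 54 transcripts, 33 genes by Simes's method, 1 difference between backgrounds and 2 gene totals were called. With no filter on the share the counts were 86 transcripts and 52 genes, and with no variance trend 13 and 12. In WT mice alone and in AD mice alone the counts were 3 and 2 each. limma's diffSplice called 57 transcripts, 24 of them shared. Without AD p38KO mice 1 and 4 the difference between backgrounds had 0 calls and the totals 1, and with the label suffix S0 as a term the difference had 0. Leaving out each library in turn gave 24 to 59 transcripts, 22 to 37 genes, 0 to 2 differences and 2 to 3 totals. No lead transcript changed sign under any alternative. Usage deviated little in common between same-numbered mice: their 24 correlations ran from -0.0512 to 0.137 (median -0.00282), and 1 was over 0.1. Such correlations cannot show whether mice of the same number were matched or handled together. With the replicate block 44 transcripts (42 shared) and 28 genes were called, and with the block and sex 29 transcripts, 20 genes and 0 differences. Where depth or spread limits a share, as for forms at a few reads, a miss does not show that usage was the same.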

Other observations

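Mapk14-210, outside the test for its low share and a 50-codon form annotated as subject to nonsense-mediated decay, held 1.16, 2.19 and 3.07% of Mapk14 in p38KO libraries (lowest, median and highest), against 0.641, 1.05 and 2.20% in p38+/+ libraries. Nfkb1-206, the full-length form of 971 codons, averaged 3.33 ± 2.66% in p38KO libraries and 1.25 ± 1.65% in p38+/+ libraries (SD, n = 8 each), and the groups overlapped. On the X chromosome 3 of 131 genes tested were called, Gpr34, Hnrnph2 and Rp2, against 0.702% of all genes tested. With sex as a term all 3 were called, and with the replicate block and sex together Gpr34 was not.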
